A study of Mus musculus with 6 samples.

Results

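Of the 10 genes described here, all but Lmnb1, a gene of the nuclear lamina, restrain the cell cycle or act beside the p53 protein. Transcripts of all 10 were measured by RNA sequencing in samples labelled as mouse chondrocytes, the cells of cartilage. The members were chosen by gene symbol: Cdkn1a, Cdkn1b, Cdkn1c, Cdkn2c, Cdkn2d, Gadd45a, Trp53, Mdm2, Rb1 and Lmnb1. All 10 had a row in the authors' deposited table, out of 12560 rows, all of them protein-coding genes. The samples were 3 libraries labelled Eldr cKO, from mice with a conditional knockout of the long noncoding RNA gene Eldr, and 3 labelled control. The sources used here give neither the Cre driver, the age of the mice or the joint sampled, nor the alleles of the controls. The series title concerns the senescence of chondrocytes in ageing and injury, a lasting exit from the cell cycle. The comparison addresses which of these genes differ when Eldr is targeted. Eldr was not among the rows, so its loss could not be read from these values.

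Cyclin-dependent kinases (CDKs) drive a cell from the resting phase into DNA replication. The CIP/KIP inhibitors (Cdkn1a, Cdkn1b and Cdkn1c) bind several cyclin-CDK complexes, while the INK4 inhibitors (Cdkn2c and Cdkn2d among them) bind CDK4 and CDK6. When these kinases are held back, the retinoblastoma protein, encoded by Rb1, stays bound to E2F transcription factors and keeps replication genes off. p53, encoded by Trp53, switches on Cdkn1a and Gadd45a after DNA damage and also switches on Mdm2, whose product marks p53 for degradation. Cells that become senescent commonly gain p21, the product of Cdkn1a, and lose lamin B1, the product of Lmnb1.

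The libraries were shallow, and levels in FPKM (fragments per kilobase of transcript, relative to the depth of the library) are given per library for that reason. The depth estimated from the steps in low FPKM values was 191543, 52180 and 55987 fragments in Eldr cKO 1, 2 and 3, against 464360, 79492 and 130367 in control 1, 2 and 3. Repeat-rich predicted genes took 3.84%, 48.8% and 46.2% of all FPKM in Eldr cKO 1, 2 and 3, against 3.07% to 13.4% in the controls. Mitochondrial genes took 43.6%, 33.9% and 33.8% in Eldr cKO 1, 2 and 3, against 68.0%, 70.0% and 41.1% in control 1, 2 and 3. Cartilage markers were sparse for samples with this label: of 18 fixed chondrocyte genes 8 had a row, Col2a1 and Acan were not among them, and 0 of the 8 were above 0 in all 6 libraries. All 12 fixed heart muscle genes had a row, and they summed to between 1786 and 8227 FPKM in Eldr cKO and between 936 and 9365 FPKM in the controls, against at most 30.6 FPKM for the chondrocyte genes in any library. The values below therefore describe these libraries, and how much of their RNA came from chondrocytes is not known. In such bulk samples fewer cells of a type and less RNA per cell cannot be told apart. Nothing in the labels says that libraries came from separate animals or cultures, so p-values reflect only how far these 6 libraries spread, and that spread may be technical.

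Start-site sequences are shown for Cdkn1a and Gadd45a, p53 targets whose highest values were in Eldr cKO, and for Cdkn2d, which was listed at 0 in each Eldr cKO library; this choice was made after the values were seen. They are RefSeq windows on GRCm38.p6 from 250 bases before to 50 bases after an annotated start, given for 7 of the 10 members, with no window used for Cdkn1c, Rb1 and Lmnb1. In the upstream Cdkn1a window, chr17:29090729-29091028 on the plus strand, the capitals mark a full p53 site of 20 bases with 1 mismatch to the consensus, at positions 29090928 to 29090947. In the other 3 windows the capitals mark the GC box, the letters GGGCGG on either strand. These are the second Cdkn1a start at chr17:29093519-29093818, plus strand, the Gadd45a start at chr6:67037358-67037657, minus strand, and the Cdkn2d start at chr9:21291160-21291459, minus strand.
Cdkn1a upstream start: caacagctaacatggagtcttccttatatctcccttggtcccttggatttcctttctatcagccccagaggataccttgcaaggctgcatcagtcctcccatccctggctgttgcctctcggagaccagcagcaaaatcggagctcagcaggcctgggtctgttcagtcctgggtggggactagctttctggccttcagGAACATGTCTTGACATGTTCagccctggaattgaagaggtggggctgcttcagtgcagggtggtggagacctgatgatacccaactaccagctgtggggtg
Cdkn1a second start: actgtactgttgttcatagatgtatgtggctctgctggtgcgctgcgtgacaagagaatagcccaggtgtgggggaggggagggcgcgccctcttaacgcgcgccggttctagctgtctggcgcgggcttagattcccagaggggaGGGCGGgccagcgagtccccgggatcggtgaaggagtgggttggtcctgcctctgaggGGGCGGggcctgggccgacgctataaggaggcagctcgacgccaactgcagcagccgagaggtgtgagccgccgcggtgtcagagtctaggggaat
Gadd45a start: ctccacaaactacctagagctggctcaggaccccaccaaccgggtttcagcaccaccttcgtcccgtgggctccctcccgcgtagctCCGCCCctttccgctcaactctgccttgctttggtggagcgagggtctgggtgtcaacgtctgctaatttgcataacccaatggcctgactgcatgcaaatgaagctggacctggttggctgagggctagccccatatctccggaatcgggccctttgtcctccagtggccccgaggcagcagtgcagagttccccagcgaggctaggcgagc
Cdkn2d start: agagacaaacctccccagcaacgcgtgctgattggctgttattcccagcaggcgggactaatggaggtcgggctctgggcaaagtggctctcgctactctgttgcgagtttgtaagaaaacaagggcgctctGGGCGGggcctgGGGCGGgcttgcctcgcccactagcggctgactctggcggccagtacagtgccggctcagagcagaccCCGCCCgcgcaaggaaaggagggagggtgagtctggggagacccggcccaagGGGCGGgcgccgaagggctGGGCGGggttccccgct

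A full p53 site with at most 1 mismatch was searched by its consensus on windows of this length. It was present in 29 of 32851 start windows (0.0883%), and among the 9 windows of the members only in the upstream Cdkn1a window. The full site is a repeated unit, and a gap between the units was not allowed. The unit alone was present in 8.36% of all windows. It numbered 2 in the upstream Cdkn1a window and 1 each in the Gadd45a, Cdkn2d, Mdm2 and Trp53 windows, and was absent from the others of the members. Sequence outside the windows was not searched. GC boxes were present in 35.7% of all windows, and numbered 2 in the second Cdkn1a window, 1 in the Gadd45a window and 5 in the Cdkn2d window. A match describes the letters in a window, and binding there was not measured.

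Most members were seen in the deepest library of each genotype. In Eldr cKO 1, 2 and 3, 9, 2 and 5 of the 10 members were above 0, against 9, 3 and 6 in control 1, 2 and 3. Over all rows the shares above 0 were 73.6%, 36.6% and 39.1% in Eldr cKO 1, 2 and 3 and 79.1%, 37.6% and 62.4% in control 1, 2 and 3. No member was above 0 in all 6 libraries, whereas 1592 of 12560 rows (12.7%) were. Of the 60 values of the members, 26 were listed at 0. Of the 34 values above 0, 24 stood on fewer than 3.5 estimated fragments and 8 on 5 or more, taking the longest annotated transcript of each gene.

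**Figure D1:**
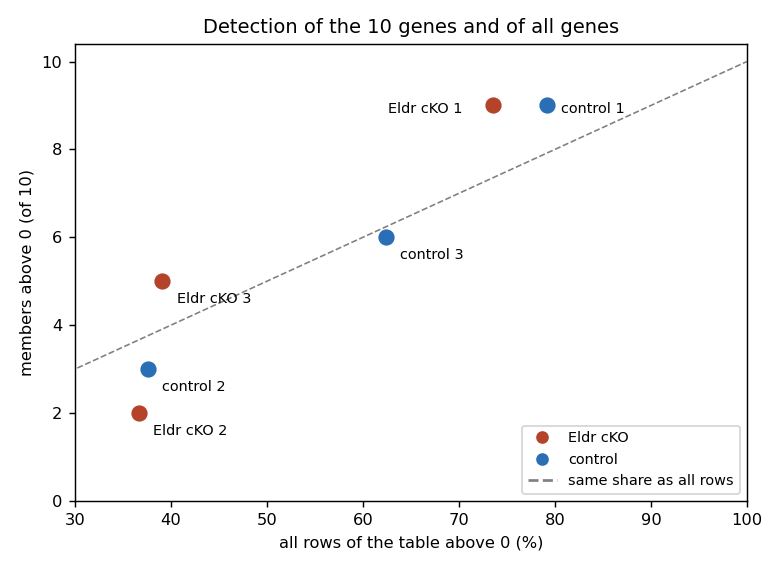
Number of the 10 members above 0 (vertical axis) against the share of all 12560 rows above 0 (horizontal axis, percent), 1 point per library, Eldr cKO in red and control in blue. The dashed line marks an equal share; Eldr cKO 2 and control 2 sit lowest, with 2 and 3 members, and Eldr cKO 1 and control 1 highest, with 9 each.

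Among the CIP/KIP inhibitors, Cdkn1a was the member that separated the genotypes most. Cdkn1a (ENSMUSG00000023067.13, GRCm38 chromosome 17, 29090979 to 29100722, plus strand) was listed at 50.2, 0 and 15.0 FPKM in Eldr cKO 1, 2 and 3, against 0 in every control. Eldr cKO 1 and 3 were high, and Eldr cKO 2 shared the value of 0 with the controls, so the groups met at 0. The 50.2 FPKM stood on an estimated 20.0 fragments with the longest transcript (2080 bases) and on 8.87 with the shortest coding one (922 bases), while the 15.0 FPKM stood on 1.75 and 0.777. The annotated gene AC167363.2, which had no row, overlaps Cdkn1a on the opposite strand, and whether reads were shared was not tested.

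The zeros of Cdkn1a carried unequal weight. If a listed 0 stands for no fragment, it allows up to 3 fragments, which on the longest transcript are worth 27.6 FPKM in Eldr cKO 2, against 3.11, 18.1 and 11.1 FPKM in control 1, 2 and 3. The limit in control 1, the deepest library, thus lay under both detected values, and that in control 2 lay above the 15.0 FPKM of Eldr cKO 3. With the shortest coding transcript these limits were 62.4 FPKM in Eldr cKO 2 and 7.01, 40.9 and 25.0 FPKM in control 1, 2 and 3. Pooled over libraries, 21.8 of 299710 estimated fragments in Eldr cKO and 0 of 674219 in control came from Cdkn1a. With the shortest coding transcript the pooled Eldr cKO number was 9.6. Of the 21.8 fragments, 20.0 came from Eldr cKO 1, so the pooled numbers rest mostly on 1 library, and pooled fragments are not replicates of a genotype. These limits cover counting error only, and rest on depths estimated from FPKM.

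On the log2(FPKM + 1) scale Cdkn1a was 3.23 higher in Eldr cKO (SE 1.39, n = 3 each), a size that depends on the pseudocount since the controls were at 0. limma gave an unadjusted p = 0.0205 and, with Benjamini-Hochberg adjustment over all genes tested, an adjusted p = 1.00. A two-sided exact permutation test over the 6 libraries gave p = 0.40. Only 2 values of Cdkn1a were above 0, both in Eldr cKO, and with these ties 0.40 is the smallest p it could reach. The limit of 0.10 for 3 against 3 libraries holds only without such ties, so this test could not separate the genotypes for Cdkn1a. The authors' deposited table gave Cdkn1a p = 0.128 and q = 0.761. Rows listed at 0 in each control and above 0 in at least 2 Eldr cKO libraries numbered 177 of 12560 (1.41%), Cdkn1a among them.

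Cdkn1b, which encodes p27, a brake on CDK2 in resting cells (GRCm38 chromosome 6, 134920401 to 134925513, plus strand), was listed at 10.5, 0 and 6.64 FPKM in Eldr cKO 1, 2 and 3, against 7.95, 5.13 and 1.70 FPKM in control 1, 2 and 3. It was among the most often seen members, above 0 in 5 of 6 libraries, and its ranges overlapped. The highest values stood on 9.12 estimated fragments in Eldr cKO 1 and 16.8 in control 1. The difference was -0.25 (SE 1.38, log2 scale), smaller than its error, and turned positive without Eldr cKO 2, the library at 0 (0.82), and without control 1 (0.13).

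Cdkn1c, which encodes p57, an imprinted growth restrictor (GRCm38 chromosome 7, 143458339 to 143461050, minus strand), was listed at 2.56, 9.37 and 0 FPKM in Eldr cKO 1, 2 and 3, against 2.64, 6.21 and 3.76 FPKM in control 1, 2 and 3. Of the 5 values above 0, 4 stood on nearly the same support, 0.929 to 0.938 estimated fragments, and the 2.64 FPKM of control 1 stood on 2.33. In this member the 9.37 FPKM of Eldr cKO 2, the highest level, was thus the level of about 1 fragment. The difference was -0.59 (SE 1.39, log2 scale) and became 0.28 without Eldr cKO 3. The antisense gene Gm44732 overlaps Cdkn1c, and no source used here says whether counting used strand, so reads of both cannot be told apart.

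The INK4 inhibitors were near the limit of detection. Cdkn2d, which encodes the p19 INK4 protein (GRCm38 chromosome 9, 21288410 to 21291407, minus strand), was listed at 0 in each Eldr cKO library, against 2.74, 0 and 9.81 FPKM in control 1, 2 and 3. Control 1 and 3 were above 0, and control 2 met the Eldr cKO libraries at 0. Both detected values stood on few fragments, an estimated 1.81 in control 1 and 1.82 in control 3. A 0 allows up to 11.0, 40.4 and 37.7 FPKM in Eldr cKO 1, 2 and 3, all above the detected values. Rows listed at 0 in each Eldr cKO library and above 0 in at least 2 controls made up 5.08% of the table (638 of 12560). The difference was -1.78 (SE 1.22, log2 scale, limma adjusted p = 1.00).

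Cdkn2c, which encodes the p18 INK4 protein (GRCm38 chromosome 4, 109660876 to 109667189, minus strand), was above 0 in 1 library of each genotype, at 5.84 FPKM in Eldr cKO 1, against 2.30 FPKM in control 1. Both values rested on similar estimates, 2.77 fragments in Eldr cKO 1 and 2.64 in control 1. Eldr cKO 1 and control 1 are the deepest library of each genotype. The difference was 0.35 (SE 1.16, log2 scale), smaller than its error, and its sign rested on Eldr cKO 1: without that library the gene was under the filter, with both remaining Eldr cKO libraries at 0 and a control mean of 0.57 on the log2(FPKM + 1) scale.

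**Figure D2:**
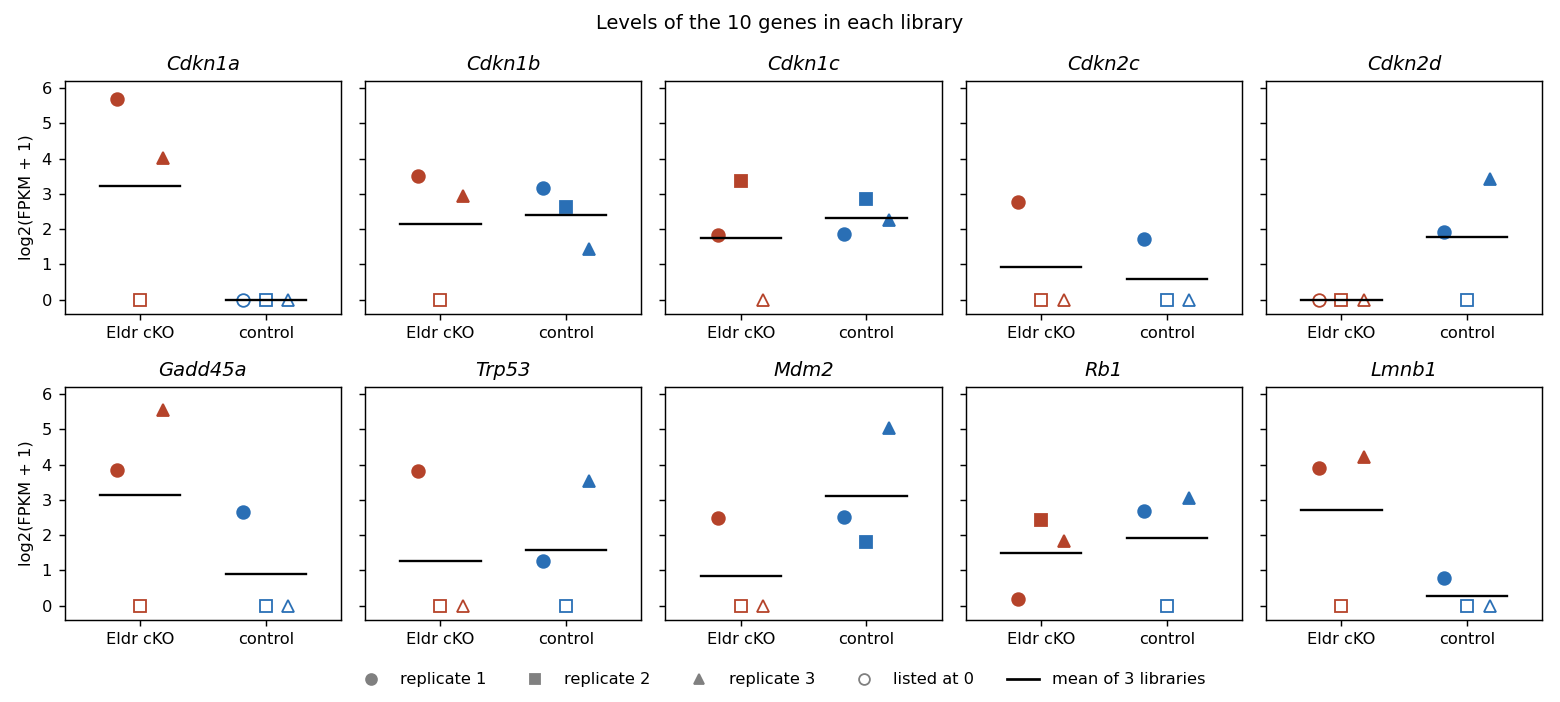
Level of each member as log2(FPKM + 1) in the 3 Eldr cKO libraries (red, left) and the 3 controls (blue, right), with symbols for the replicates, open symbols for values listed at 0 and a line at the mean. Cdkn1a lies at 0 in each control and Cdkn2d at 0 in each Eldr cKO library, and the ranges of both genotypes meet or overlap in all 10 panels.

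Of the p53 genes, Trp53 itself showed no separation of the genotypes. Trp53 (GRCm38 chromosome 11, 69580359 to 69591873, plus strand) was listed at 13.1, 0 and 0 FPKM in Eldr cKO 1, 2 and 3, against 1.39, 0 and 10.5 FPKM in control 1, 2 and 3. One library in each genotype was high, Eldr cKO 1 with 8.24 estimated fragments and control 3 with 4.49, and control 1, the deepest library, had 2.11. The difference was -0.32 (SE 1.38, log2 scale), and it was positive in several alternatives, at 0.32 without Eldr cKO 2, 0.32 without Eldr cKO 3 and 0.65 without control 3.

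Mdm2, the ubiquitin ligase gene that limits p53 (GRCm38 chromosome 10, 117688875 to 117710758, minus strand), was listed at 4.62, 0 and 0 FPKM in Eldr cKO 1, 2 and 3, against 4.67, 2.47 and 31.7 FPKM in control 1, 2 and 3. It was above 0 in every control, and control 3 stood apart with 13.0 estimated fragments, against 6.82 in control 1 and 0.619 in control 2. Eldr cKO 1 and control 1 were close in level (4.62 against 4.67 FPKM), and a 0 allows up to 18.3 FPKM in Eldr cKO 2 and 17.0 FPKM in Eldr cKO 3. The difference of -2.28 (SE 1.39, log2 scale) was not called (limma adjusted p = 1.00), the exact permutation test gave p = 0.20, and without control 3 the difference was -1.32.

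Gadd45a, a stress sensor gene induced by p53 and by other pathways (GRCm38 chromosome 6, 67035096 to 67037457, minus strand), was listed at 13.3, 0 and 46.4 FPKM in Eldr cKO 1, 2 and 3, against 5.36, 0 and 0 FPKM in control 1, 2 and 3. Eldr cKO 1 and 3 were above every control, and Eldr cKO 2 was level with control 2 and 3 at 0. The 3 values above 0 stood on nearly the same support, an estimated 3.12 fragments in Eldr cKO 1, 3.18 in Eldr cKO 3 and 3.05 in control 1, so their spread in FPKM followed the depth of the libraries. The difference was 2.25 (SE 1.39, log2 scale, limma adjusted p = 1.00), and it was 1.03 without Eldr cKO 3. The noncoding gene E230016M11Rik overlaps Gadd45a on the opposite strand.

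**Figure D3:**
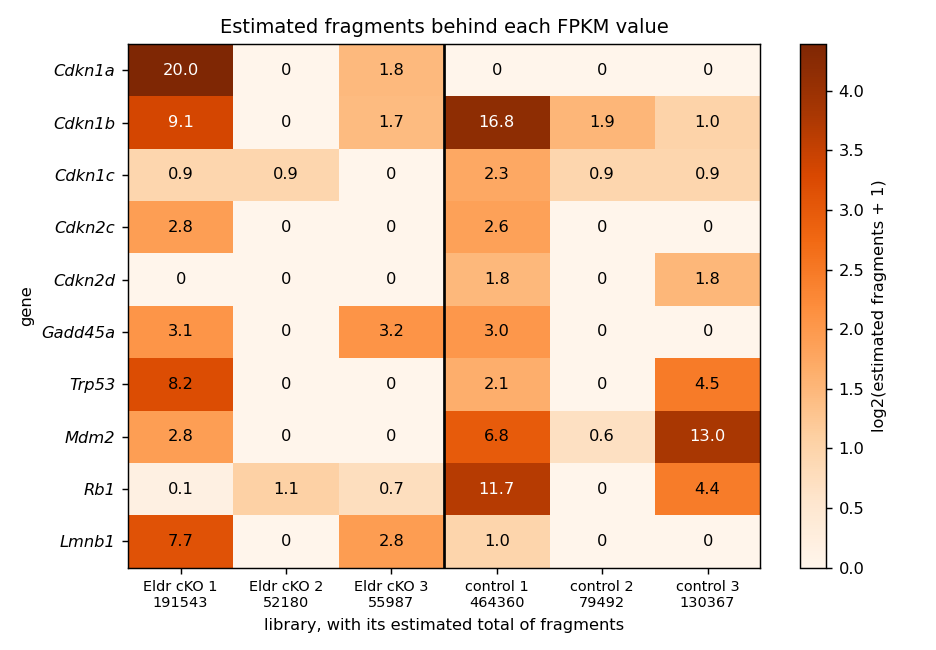
Estimated number of fragments behind each value, with members in rows and libraries in columns, the total of each library under its name and the colour on a log2(fragments + 1) scale. The largest numbers are 20.0 for Cdkn1a in Eldr cKO 1, 16.8 for Cdkn1b in control 1 and 13.0 for Mdm2 in control 3.

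Rb1, which encodes the retinoblastoma protein (GRCm38 chromosome 14, 73183673 to 73325822, minus strand), was the only member above 0 in every Eldr cKO library, at 0.134, 4.41 and 2.59 FPKM in Eldr cKO 1, 2 and 3, against 5.39, 0 and 7.31 FPKM in control 1, 2 and 3. The ranges overlapped through the 0 of control 2. Control 1 and 3 stood on 11.7 and 4.44 estimated fragments. The value of Eldr cKO 1 came to 0.119 of a fragment, less than 1 whole fragment on the coding transcript, although that library was deeper than control 3. The difference was -0.42 (SE 1.39, log2 scale) and turned positive without control 3 (0.15) and without Eldr cKO 1 (0.23). Lpar6, which lies within Rb1 on the opposite strand, was listed at 0.964, 4.12 and 0.277 FPKM in Eldr cKO 1, 2 and 3, against 3.19, 0 and 17.1 FPKM in control 1, 2 and 3, and was at 0 in the same library as Rb1. Rcbtb2, which also overlaps Rb1 on the opposite strand, was listed at 2.05, 0 and 0 FPKM in Eldr cKO 1, 2 and 3, against 1.75, 2.65 and 1.61 FPKM in control 1, 2 and 3, and was above 0 in the control where Rb1 was at 0. Whether reads were shared between these genes was not tested.

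Lmnb1, which encodes lamin B1 of the nuclear lamina (GRCm38 chromosome 18, 56707813 to 56753424, plus strand), was listed at 14.1, 0 and 17.6 FPKM in Eldr cKO 1, 2 and 3, against 0.732, 0 and 0 FPKM in control 1, 2 and 3. Eldr cKO 1 and 3 were above all controls, and Eldr cKO 2 was at 0. The detected values stood on 7.68 estimated fragments in Eldr cKO 1 and 2.81 in Eldr cKO 3, against 0.966 in control 1. A 0 allows up to 20.2 FPKM in Eldr cKO 2 and up to 13.3 and 8.09 FPKM in control 2 and 3. The difference was 2.45 (SE 1.38, log2 scale), with an unadjusted p = 0.0772 and an adjusted p = 1.00 (limma), and an exact permutation p = 0.40.

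Cdkn1a, Gadd45a, Lmnb1 and Cdkn1b were each above 0 in Eldr cKO 1 and 3 and at 0 in Eldr cKO 2. Eldr cKO 2 was the shallowest library, at 52180 estimated fragments, and Eldr cKO 3 was close to it, at 55987. Cdkn1a, Gadd45a and Lmnb1 were the members higher in value in Eldr cKO by more than 1 on the log2 scale, while Cdkn1b was at -0.25. The summed FPKM of 7 macrophage markers was 157, 77.5 and 104 in Eldr cKO 1, 2 and 3, against 117, 32.8 and 7.32 in control 1, 2 and 3, with 7 of 7 having a row, and the part of these cells in the values of the members was not tested. Summed over 8 endothelial markers, it was 76.8, 22.7 and 29.6 FPKM in Eldr cKO 1, 2 and 3, against 88.8, 14.4 and 5.01 FPKM in control 1, 2 and 3. Over the 5 erythroid markers the sum ranged from 580 to 682 FPKM in Eldr cKO and from 319 to 744 FPKM in the controls.

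Across the members, none was called between Eldr cKO and control. limma with Benjamini-Hochberg adjustment called 0 of 10, and 0 of 9007 tested genes (0.00%). With limma an unadjusted p under 0.05 was found for 1 member, Cdkn1a, and for 135 of the tested genes (1.50%). In the authors' deposited test 2 of 12560 rows had q under 0.05 and 249 had p under 0.05, with no member among either. The values of both genotypes did not overlap for 0 members, against 355 of the tested genes (3.94%). On the log2(FPKM + 1) scale 4 members had higher values in Eldr cKO and 6 lower ones, at a median difference of -0.29, and the median over all tested genes was -0.13. These directions depend on the scale. By mean FPKM, Cdkn1b (5.70 in Eldr cKO against 4.93 in control) and Trp53 (4.38 against 3.97) were higher in Eldr cKO, and the other members kept their direction. A difference over 1 in size on the log2(FPKM + 1) scale was found for 5 members, 3 higher and 2 lower, and for 36.4% of the tested genes. Standard errors of the members ran from 1.16 to 1.39 on the log2(FPKM + 1) scale, and the 95% interval of Cdkn1a from 0.50 to 5.96. Both took their spread from the limma trend over all genes, not from the gene itself, and the own residual SD of Cdkn1a was 2.06. The authors' two-sided test with equal variances, which uses the gene's own spread, gave p = 0.128 for Cdkn1a.

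**Figure D4:**
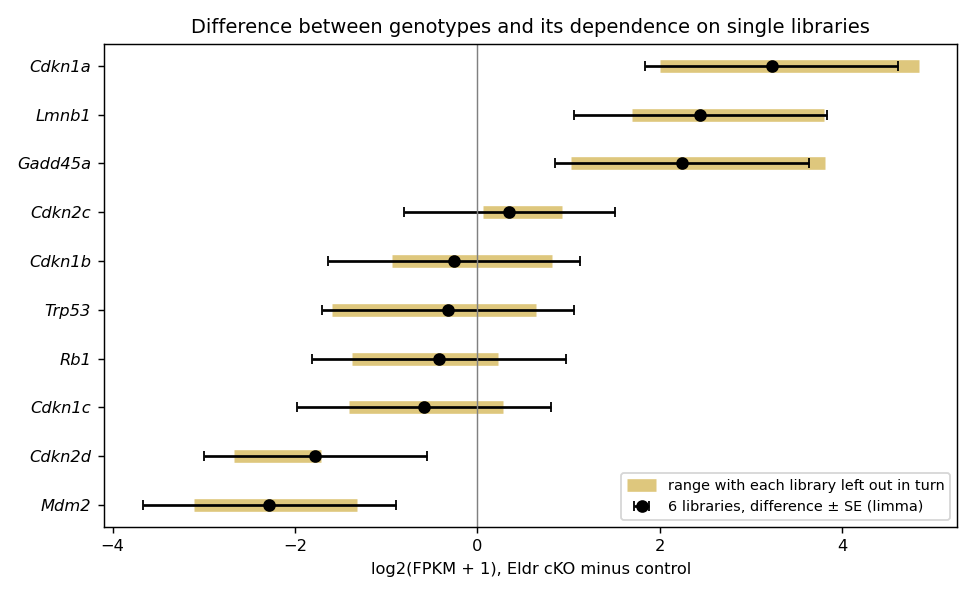
Difference between Eldr cKO and control in log2(FPKM + 1) for each member (points, with the SE from limma, n = 3 each), and the range of that difference when each library was left out in turn (bars). Cdkn1a, Lmnb1 and Gadd45a stay above 0 and Mdm2 below 0 over 6 fits, and Cdkn1b, Trp53, Rb1 and Cdkn1c cross 0. Cdkn1a, at 0 in each control, could not fall below 0, and Cdkn2d, at 0 in each Eldr cKO library, could not rise above 0. The bars of Cdkn2c and Cdkn2d hold 5 fits, since Cdkn2c was under the filter without Eldr cKO 1 and Cdkn2d without control 3.

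Levels per length can be ranked between genes, but the ranking was loose. Mean FPKM over the 6 libraries was 10.9 for Cdkn1a, 10.8 for Gadd45a, 7.25 for Mdm2, 5.41 for Lmnb1, 5.31 for Cdkn1b, 4.17 for Trp53, 4.09 for Cdkn1c, 3.31 for Rb1, 2.09 for Cdkn2d and 1.36 for Cdkn2c. Of the 9 pairs of neighbours in this order, 0 differed by more than the spread over libraries of the higher one (SD from 2.38 to 20.2 FPKM, n = 6). By genotype, the mean of Cdkn1a was 21.8 ± 25.8 FPKM in Eldr cKO and 0 in control, that of Mdm2 1.54 ± 2.67 FPKM in Eldr cKO and 13.0 ± 16.3 FPKM in control, and that of Cdkn1b 5.70 ± 5.29 FPKM in Eldr cKO and 4.93 ± 3.13 FPKM in control (SD, n = 3 each).

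Genes that act around the members were drawn from 8 lists, of whose 132 genes 113 had a row and 88 were tested. Of these 88, 0 were called, 35 were higher and 53 lower in Eldr cKO, and 3 had an unadjusted p under 0.05 (limma). Over all 9007 tested genes, 45.5% were higher in Eldr cKO and 1.50% had an unadjusted p under 0.05, and the direction counts of each list below stand against that share. The median difference of the 88 was -0.32 on the log2 scale, against -0.13 over all tested genes. The 3 were Rps27l, Ccnb2 and Tob1.

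Of 21 tested target genes of p53 other than the members, Eldr cKO had higher values in 5 and lower ones in 16 (median difference -0.48), and 0 were called. Ccng1, the gene of cyclin G1, was listed at 97.7, 5.44 and 54.0 FPKM in Eldr cKO 1, 2 and 3, against 220, 44.4 and 15.5 FPKM in control 1, 2 and 3. Rps27l, a ribosomal protein-like gene induced by p53, was listed at 32.0, 0 and 54.9 FPKM in Eldr cKO 1, 2 and 3, against 68.7, 53.6 and 78.3 FPKM in control 1, 2 and 3 (difference -2.45, SE 1.24, limma adjusted p = 1.00). Bax, which promotes cell death, was listed at 0, 0 and 15.2 FPKM in Eldr cKO 1, 2 and 3, against 1.94, 0 and 57.0 FPKM in control 1, 2 and 3. In these 3 p53 targets, unlike in Cdkn1a and Gadd45a, the highest of each gene's values was in a control. The same held for the member Mdm2, also switched on by p53, at 31.7 FPKM in control 3. Whether the genes differ in this was not tested.

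Of 12 tested regulators of p53, Eldr cKO had higher values in 4 and lower ones in 8 (median -0.48), and 0 were called. The most abundant were ribosomal protein genes whose products bind the Mdm2 protein. Rpl23 was listed at 119, 156 and 141 FPKM in Eldr cKO 1, 2 and 3, against 82.0, 130 and 584 FPKM in control 1, 2 and 3. Rpl11 ranged from 46.5 to 100 FPKM in Eldr cKO and from 53.6 to 156 FPKM in control, and Rpl5 from 50.2 to 73.9 FPKM in Eldr cKO and from 29.7 to 94.5 FPKM in control. Each was above 0 in all 6 libraries, in contrast to every member.

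Among cyclins and CDKs, the partners that the inhibitors act on, Eldr cKO had higher values in 6 of 10 tested genes and lower ones in 4 (median 0.36), and 0 were called. Ccnd1, the gene of cyclin D1, was listed at 21.6, 0 and 20.7 FPKM in Eldr cKO 1, 2 and 3, against 7.19, 3.38 and 46.1 FPKM in control 1, 2 and 3. Cdk4, the kinase bound by INK4 proteins, was listed at 21.5, 18.4 and 0 FPKM in Eldr cKO 1, 2 and 3, against 5.97, 3.90 and 5.50 FPKM in control 1, 2 and 3. Ccnb2, the gene of the mitotic cyclin B2, was listed at 11.5, 12.6 and 11.6 FPKM in Eldr cKO 1, 2 and 3, against 0, 0 and 6.02 FPKM in control 1, 2 and 3. The ranges of Ccnb2 did not overlap, as was so for 355 of the 9007 tested genes (3.94%). The same held for 1 gene each in the lists of p53 targets and of ubiquitin ligases. The difference of Ccnb2, 2.75 (SE 1.38, log2 scale), had an adjusted p = 1.00 (limma). Fragments behind its values were not estimated, and 1 fragment on a transcript of 2 kb was worth 9.58 FPKM in Eldr cKO 2.

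In the list of Rb family genes and E2F partners, Eldr cKO had higher values in 7 of 9 tested genes and lower ones in 2 (median 0.87), and 0 were called. Rbbp4, a histone-binding partner of the retinoblastoma protein, was listed at 10.6, 0 and 27.9 FPKM in Eldr cKO 1, 2 and 3, against 4.24, 0 and 9.43 FPKM in control 1, 2 and 3. Lin54, of the DREAM repressor complex, was listed at 5.91, 0 and 27.3 FPKM in Eldr cKO 1, 2 and 3, against 1.70, 2.49 and 0 FPKM in control 1, 2 and 3. Tfdp1, the E2F dimer partner, was listed at 5.29, 0 and 8.30 FPKM in Eldr cKO 1, 2 and 3, against 2.25, 0 and 0 FPKM in control 1, 2 and 3. All 3 were at 0 in Eldr cKO 2, as were 8 of the 10 members.

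Among replication and mitosis genes driven by E2F, Eldr cKO had higher values in 5 of 12 tested genes and lower ones in 7 (median -0.33), and 0 were called. Pcna, the replication clamp, was listed at 29.5, 0 and 14.9 FPKM in Eldr cKO 1, 2 and 3, against 7.44, 5.22 and 44.4 FPKM in control 1, 2 and 3. Top2a, a topoisomerase of dividing cells, was listed at 8.83, 6.08 and 26.5 FPKM in Eldr cKO 1, 2 and 3, against 0.357, 19.4 and 29.5 FPKM in control 1, 2 and 3. Mcm4, a subunit of the replicative helicase, was listed at 0, 0 and 70.3 FPKM in Eldr cKO 1, 2 and 3, against 2.43, 0 and 0 FPKM in control 1, 2 and 3. The ranges of all 3 overlapped.

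Of the other cell cycle inhibitors, Cdkn2a and Cdkn2b, the INK4 genes most often used as senescence markers, were not analysed here, having no row. Of 7 tested genes of that list, Eldr cKO had higher values in 4 and lower ones in 3 (median 0.02), and 0 were called. Tob1, an antiproliferative gene, was listed at 21.2, 0 and 0 FPKM in Eldr cKO 1, 2 and 3, against 20.4, 17.0 and 65.4 FPKM in control 1, 2 and 3. Its difference of -3.39 (SE 1.35, log2 scale) had the smallest unadjusted p of the 24 genes named from these lists, 0.0117, and an adjusted p = 1.00 (limma).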

How the data were processed

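Trizol extraction, then poly(A) selection or ribosomal RNA removal, and Illumina HiSeq sequencing are described per the labels' protocols, which name a TruSeq and a stranded KAPA library kit. The submitters' processing notes name cutadapt, StringTie and HISAT2 2.0.5, with no roles, and the build hg19 for the authors' FPKM values, while gene IDs and positions in the deposited table are mouse. Positions of 9 of the 10 members lay within 1 base of GENCODE M21 on GRCm38. The log2 fold change deposited by the authors equals the difference of group means of log2(FPKM + 1), and the deposited p-value matched a two-sided test with equal variances on those values (largest gap 9.72e-13). The members and gene lists were chosen with earlier results of these data known.

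The 9007 genes averaging 1 FPKM or more, all 10 members among them, were tested on log2(FPKM + 1) with limma 3.58.1 in R 4.3.3, two-sided, with an intensity trend, genotype as the only factor, Benjamini-Hochberg adjustment over all tested genes and a threshold of 0.05. The pseudocount of 1 FPKM understates changes of low genes. limma estimated infinite prior degrees of freedom, so each SE came from the trend alone, without weight on the spread of the gene itself. Exact permutation tests over the libraries were run with scipy 1.17.1.

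The depth was estimated, not given: for genes with 1 annotated transcript, the most frequent value of 1 fragment (within 3%) gave the total of each library. FPKM times this total and the longest transcript gave estimated fragments, which need not be whole, and the shortest coding transcript was the alternative. A 0 was set to allow up to 3 fragments. The named genes were the 10 members, the 3 most abundant tested genes of each of 8 lists, and any called. Alternatives were other pseudocounts and filters, quantile normalization, rescaling without mitochondrial and repeat-rich genes, other variance settings, library weights, the replicate block and libraries left out. Promoter windows came from RefSeq on GRCm38.p6. Python 3.11.15 was used.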

Additional observations from a re-analysis of the deposited data

How the results depend on the processing

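No member was called under any of the 18 alternatives. In the fit without Eldr cKO 2 and 3 (1 library against 3), Cdkn1a was 5.68 higher in Eldr cKO on the log2 scale. There each gene's own spread comes from the controls alone, and the lone library is assumed to vary like them. For Cdkn1a the controls were all listed at 0 and its own spread was thus 0, so no p-value of that fit is given. Cdkn1a (2.0 to 5.68), Lmnb1 (1.69 to 3.85) and Gadd45a (1.03 to 3.81) kept a positive and Mdm2 (-4.34 to -0.62) and Cdkn2d (-3.82 to -1.11) a negative difference in each alternative that gave a value. Cdkn1a was at 0 in each control and Cdkn2d at 0 in each Eldr cKO library. Leaving out libraries, rescaling or changing the pseudocount or variance settings could therefore not turn either sign. For these members the constant direction was fixed in advance under those settings. Of 172 member values, 15 turned direction. With each library left out in turn, Cdkn1b ranged from -0.94 to 0.82, Cdkn1c from -1.41 to 0.28, Trp53 from -1.59 to 0.65 and Rb1 from -1.38 to 0.23. Quantile normalization gave 0.0698 for Trp53 and 0.107 for Rb1 and library quality weights gave -0.354 for Cdkn2c. The median of all tested genes, -0.13 with 6 libraries, was 0.01 with quantile normalization and -0.52 with weights. Chosen after seeing the data, leaving out Eldr cKO 2 and 3 gave 1.12 for Cdkn1b and 2.23 for Trp53, and leaving out the 3 libraries under 100000 fragments gave 1.22 and 1.43, with medians of all tested genes at 0.78 and 0.41. The cause was not tested. Cdkn1c, Cdkn2c, Cdkn2d, Rb1 and Trp53 fell under the filter in some fits and then gave no value; for Cdkn2c that included the fit without Eldr cKO 1, in which its Eldr cKO values were all 0.

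The count of called genes, 0 with 6 libraries and 135 at an unadjusted p under 0.05, was 6 with library quality weights, ranged from 0 to 4 with a library left out (4 without Eldr cKO 1, and 1, mt-Nd4, without control 1), and was 296 without Eldr cKO 2 and 3. Blocking on the replicate number gave 0, with 223 genes at an unadjusted p under 0.05. Same-numbered libraries had deviations correlated at 0.284, 0.152 and 0.0955 for numbers 1, 2 and 3, each the highest for its library, which is a hint from the data and not the design; the samples were not taken as paired. Depth limits every member: a fragment on a transcript of 2 kb was worth between 1.08 and 9.58 FPKM.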

Other observations

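Lamina and envelope genes other than Lmnb1 were measured beside it. Of 9 tested genes, Eldr cKO had higher values in 3 and lower ones in 6, with 0 called and a median difference of -0.19 on the log2 scale. Lmna, which encodes the A-type lamins, was listed at 24.2, 0 and 20.0 FPKM in Eldr cKO 1, 2 and 3, against 3.68, 12.3 and 20.9 FPKM in control 1, 2 and 3. Emd, the gene of emerin, was listed at 15.8, 7.98 and 0 FPKM in Eldr cKO 1, 2 and 3, against 14.5, 0 and 15.5 FPKM in control 1, 2 and 3. Banf1, a chromatin-binding partner of the lamina, was above 0 in 1 library, at 33.9 FPKM in Eldr cKO 1.

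Genes of the ubiquitin ligases that degrade CDK inhibitors were lower in 7 and higher in 1 of 8 tested genes in Eldr cKO, with 0 called and a median difference of -0.69; over all tested genes 45.5% were higher. Skp1a, an adaptor of the SCF ligase, was listed at 52.1, 38.2 and 16.8 FPKM in Eldr cKO 1, 2 and 3, against 44.3, 53.9 and 44.4 FPKM in control 1, 2 and 3. Ddb1, an adaptor of CUL4 ligases, was listed at 48.2, 9.24 and 12.9 FPKM in Eldr cKO 1, 2 and 3, against 22.6, 5.37 and 26.3 FPKM in control 1, 2 and 3. Cul1, the scaffold of SCF, was listed at 11.7, 0 and 10.7 FPKM in Eldr cKO 1, 2 and 3, against 12.4, 0 and 61.0 FPKM in control 1, 2 and 3.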
